A study of Homo sapiens with 12 samples.

Results

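The genes described here are 10 receptors for hormones, nutrients and glutamate, chosen by symbol from the 28278 genes of a count table. They are the receptors for GLP-1, GIP and glucagon (GLP1R, GIPR and GCGR), the somatostatin receptors SSTR2 and SSTR3, the nutrient receptors FFAR1 and CASR, the beta-1 adrenergic receptor ADRB1, and GRIA2 and GRIA3, subunits of the AMPA-type glutamate receptor. All 10 were in the table, and 9 passed the filter on low counts and were tested. The choice was by name, with earlier results of these data known.

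Alpha cells, which secrete glucagon in the islet, were made in culture from human embryonic stem cells of the established line HUES-8. Cells were kept for 48 h in 30 mL bioreactors stirred at 40 rpm, with 5 uM tunicamycin or with its solvent, DMSO. Tunicamycin blocks the first step of N-glycan assembly and is used to cause endoplasmic reticulum (ER) stress. RNA was sequenced in bulk from 6 tunicamycin and 6 DMSO samples, labelled biological replicates 1 to 6 of each group. Numbers 1 to 3 and 4 to 6 of each group formed 2 sequencing batches. All samples come from the same cell line, and none had a genetic change named in the labels.

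Incretins, the gut hormones GLP-1 and GIP, act on receptors that raise cAMP through the G protein Gs. In islets, GIP promotes glucagon release from alpha cells, and GLP-1 lowers it. Somatostatin from delta cells acts on Gi-coupled receptors and holds glucagon release back, whereas amino acids, fatty acids, adrenaline and glutamate act on receptors of their own. AMPA receptors are ion channels opened by glutamate, and glutamate released with glucagon can act on them in human alpha cells.

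Libraries held 22.2 ± 1.70 M counts in tunicamycin samples and 23.3 ± 4.47 M in DMSO samples (SD, n = 6 each), between 17523442 and 28872269 in all. All 8 ER stress genes examined rose, with a median log2 fold change of 2.25. HSPA5, the ER chaperone BiP, reached 5269 CPM in tunicamycin samples, against 845.3 CPM in DMSO samples. Summed alpha cell markers ranged over 58970 to 94480 CPM in tunicamycin samples and 79340 to 117500 CPM in DMSO samples. None of the 8 was called with batch as covariate. With the sample number as a block 1 was called lower, GC, a vitamin D-binding protein (log2 fold change -0.32, adjusted p = 0.0173). GCG, the glucagon gene, was lower in 6 of 6 pairs but called in neither fit. Its log2 fold change was -0.39 with batch (adjusted p = 0.184) and -0.38 with the block (0.0722). The libraries also held other cell types in varying amounts. Summed mesenchymal markers ranged over 88.3 to 628 CPM in tunicamycin samples and 170 to 1522 CPM in DMSO samples. Of these 9 markers none was called with batch as covariate and 8 were called lower with the block, THY1 among them (-1.33, adjusted p = 0.000869). Heart muscle markers ranged over 10.6 to 1069 CPM with tunicamycin and 6.32 to 1864 CPM with DMSO, and both samples numbered 5 were the highest of their groups. In bulk RNA, fewer cells of a type and less RNA per cell cannot be told apart.

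FFAR1 rose 1.62-fold with tunicamycin and was the only receptor of the 9 tested that passed an adjusted p of 0.05 in the quasi-likelihood test of edgeR, fitted with the sequencing batch as covariate. In the same fit 4.7% of all genes tested were called higher and 3.42% lower, so 1 call among 9 does not set the receptors apart from other genes. Samples of the same number varied together across genes for numbers 1 to 3 (correlation 0.52 to 0.60) and only weakly for numbers 4 to 6 (0.12 to 0.19). A fit with the sample number as a block called 5 of the 9. FFAR1 and CASR were called higher, while GLP1R, SSTR3 and GRIA3 were called lower. With the block 9.19% of all genes were called higher and 8.6% lower. GIPR, GCGR, SSTR2 and GRIA2 were called in neither fit. The median log2 fold change of the 9 was -0.09, beside -0.01 over all genes tested. In 4 of the 9, namely GLP1R, FFAR1, CASR and GRIA3, all 6 pairs of equal number differed in the same direction, which held for 21.5% of all genes tested.

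**Figure D1:**
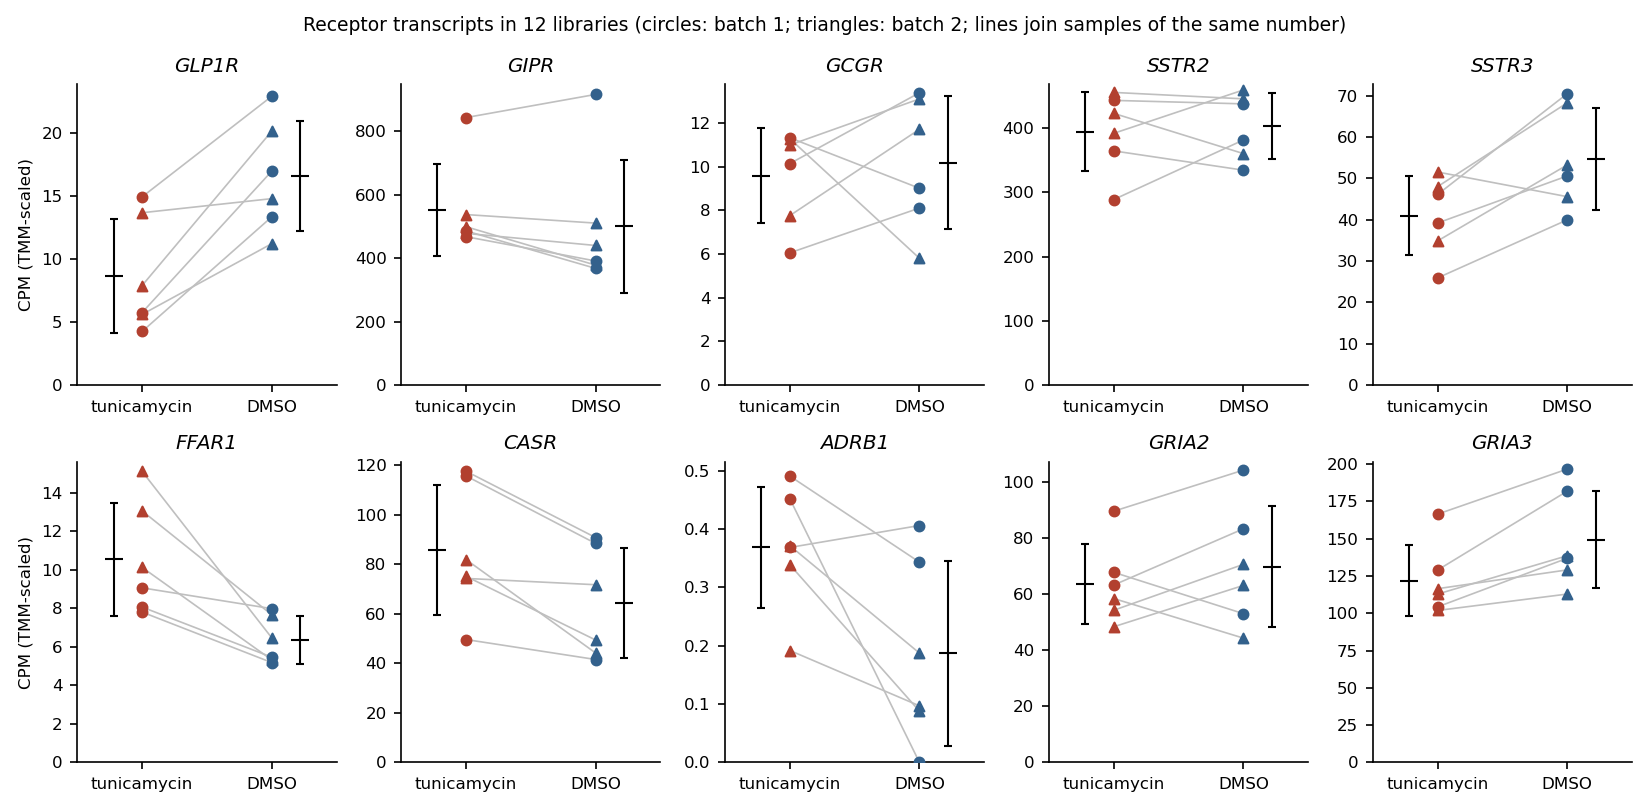
Expression of the 10 receptor genes in each library, as TMM-scaled CPM on a linear axis from 0, with tunicamycin on the left and DMSO on the right of each panel. Circles are batch 1, triangles batch 2, grey lines join samples of equal number, and black bars give the mean and SD of 6 samples. The lines of FFAR1 and CASR all run down towards DMSO, those of GLP1R and GRIA3 all run up, and GIPR has 1 high sample in each group, at 842 CPM with tunicamycin and 915 CPM with DMSO.

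**Figure D2:**
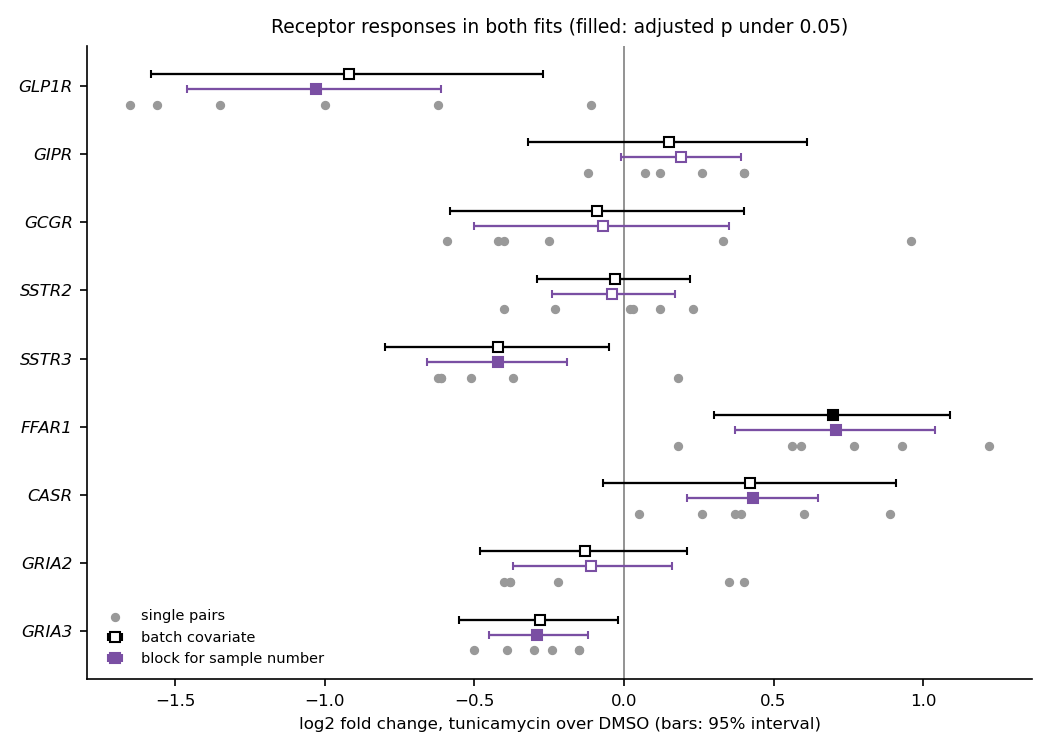
Log2 fold change of tunicamycin over DMSO for the 9 receptors tested. Squares with 95% intervals are the fit with a batch covariate (black) and the fit with a block for the sample number (purple), filled where the adjusted p was under 0.05, and grey points are the 6 single pairs. Point estimates are alike in both fits, and the interval of GLP1R spans -1.58 to -0.27 with the batch covariate and -1.46 to -0.61 with the block.

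Levels of different genes were compared per kilobase of exon, using GENCODE release 29 lengths. In both groups GIPR was the most abundant receptor, at 116 ± 30.5 CPM per kb in tunicamycin samples and 106 ± 44.3 CPM per kb in DMSO samples (SD, n = 6 each). SSTR2 followed with 50.3 ± 7.85 CPM per kb in tunicamycin samples and 51.4 ± 6.54 in DMSO samples, and GRIA3 with 18.8 ± 3.69 in tunicamycin samples and 23.0 ± 5.03 in DMSO samples. Among DMSO samples the ranges of GIPR, SSTR2, GRIA3 and SSTR3 did not overlap one another. The next neighbours did: GRIA2 ranged over 4.96 to 11.7 CPM per kb in DMSO samples, CASR over 3.46 to 7.57 and GLP1R over 3.62 to 7.39. GCGR, at 1.79 to 4.13 CPM per kb, and FFAR1, at 2.24 to 3.45, could not be ordered in DMSO samples either. In tunicamycin samples the mean of FFAR1 was 4.56 CPM per kb and that of GLP1R was 2.80, which placed FFAR1 seventh and GLP1R ninth, whereas in DMSO samples FFAR1 was ninth at 2.75 and GLP1R seventh at 5.34. ADRB1 came last, at 0.129 CPM per kb with tunicamycin and 0.0655 with DMSO.

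**Figure D3:**
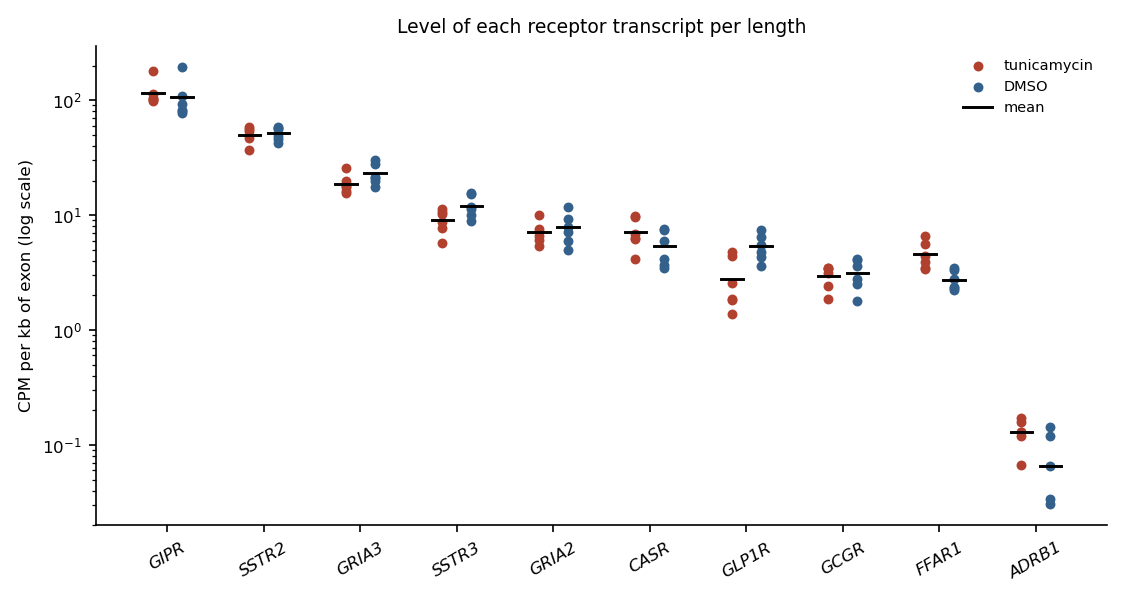
Level of each receptor in CPM per kilobase of exon on a log axis, ordered by the mean in DMSO samples. Points are single libraries (tunicamycin red and on the left, DMSO blue and on the right), black lines are means of 6, and the DMSO library in which ADRB1 was 0 is not drawn. GIPR and SSTR2 lie highest, and ADRB1 lies below 0.2 CPM per kb throughout.

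The promoters of the 2 receptors called higher with the block and of the receptor with the largest decrease are shown because response elements of the unfolded protein response are defined by sequence. RefSeq's table (GRCh38.p14) had an entry for 9 of the 10 receptors, and each sequence is the 250 bases before the transcription start, 5′ to 3′ on the strand of the gene. Capitals mark matches on either strand to CCAAT, the box bound by NF-Y, to CCACG, which is paired with it in the ER stress response element, to TGACG, a core of ATF6 and CREB sites, to ACGTG, a core of XBP1 sites, or to TGATGCAA, an element bound by ATF4. A match to ACGTG can share bases with one to CCACG or TGACG. FFAR1 lies at chr19:35347652-35347901 on the plus strand, CASR at chr3:122183418-122183667 on the plus strand and GLP1R at chr6:39048531-39048780 on the plus strand.
FFAR1: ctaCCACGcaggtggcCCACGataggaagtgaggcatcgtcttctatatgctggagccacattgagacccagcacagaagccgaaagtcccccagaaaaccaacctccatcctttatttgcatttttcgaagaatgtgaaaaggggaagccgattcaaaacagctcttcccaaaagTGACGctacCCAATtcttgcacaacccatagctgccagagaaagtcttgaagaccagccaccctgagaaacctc
CASR: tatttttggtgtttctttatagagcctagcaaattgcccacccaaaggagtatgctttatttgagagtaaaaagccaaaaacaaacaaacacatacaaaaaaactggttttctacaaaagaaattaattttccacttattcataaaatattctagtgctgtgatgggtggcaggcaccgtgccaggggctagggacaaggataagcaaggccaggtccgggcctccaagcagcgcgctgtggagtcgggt
GLP1R: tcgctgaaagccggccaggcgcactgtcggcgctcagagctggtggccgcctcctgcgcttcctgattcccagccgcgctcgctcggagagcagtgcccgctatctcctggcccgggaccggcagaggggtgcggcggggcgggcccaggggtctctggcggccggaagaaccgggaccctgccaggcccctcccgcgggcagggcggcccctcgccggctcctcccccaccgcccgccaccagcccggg
The FFAR1 window held 2 CCACG, 1 TGACG and 1 CCAAT match. None of the 5 sequences occurred in the windows of CASR and GLP1R. SSTR3, called lower with the block, had 1 CCACG match before the first of its starts and 1 CCAAT match before the second. ADRB1, which was not tested, had 1 CCAAT and 1 TGACG match. Among receptors called in neither fit, SSTR2 had 1 CCACG and 1 TGACG match and GCGR had 1 CCACG match, while GIPR had none. GRIA2, also called in neither fit, had 1 CCAAT and 1 CCACG match before the first of its starts. Matches were therefore not limited to receptors that were called. Over all 35116 promoters of the table CCAAT occurred in 32.0%, CCACG in 33.5%, TGACG in 21.2%, ACGTG in 18.5% and TGATGCAA in 0.772%. The complete ER stress response element, CCAAT and CCACG with 9 bases between them, occurred in 0.074% and in none of the receptor windows. RefSeq's start of FFAR1 lies 3650 bases upstream of the start in GENCODE release 29, so the window depends on the annotation chosen. GC content was 49.6% in the FFAR1 window, 43.2% in that of CASR and 77.2% in that of GLP1R. GRIA3 had no entry in the table.

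GLP1R, the GLP-1 receptor (chromosome 6, 39048798 to 39087743, plus strand, GRCh38), was lower with tunicamycin in every pair, by 1.90-fold in the batch fit, and edgeR called the difference with the block but not with batch alone. Its lowest, median and highest values were 4.27, 6.84 and 14.96 CPM in tunicamycin samples and 11.2, 15.9 and 23.0 CPM in DMSO samples. The groups overlapped because tunicamycin 3, the highest of its group, and tunicamycin 6, at 13.70 CPM, lay inside the DMSO range, while the other 4 tunicamycin samples lay below every DMSO sample. The fitted log2 fold change was -0.92 ± 0.31 (SE, 95% interval -1.58 to -0.27), with an adjusted p of 0.0842 in edgeR. With the sample number as a block it was -1.03 ± 0.19 and the adjusted p was 0.00362. Single pairs differed by between -1.65 in pair 2 and -0.11 in pair 6 on the log2 scale. The change was -1.08 in batch 1 and -0.76 in batch 2, and neither batch alone gave a call. Of the 12 omissions of 1 library from the batch fit, only 2 gave a call. These were the omissions of tunicamycin 3 (adjusted p = 0.0247) and of tunicamycin 6 (0.0460), and the others gave up to 0.172. DESeq2 called GLP1R too (adjusted p = 0.0221), as did limma-voom (0.0481).

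GLP1R in human islets is best known from beta cells and delta cells, so markers of both were read beside it. Of 6 beta cell markers tested 3 fell, namely PDX1, NKX6-1 and IAPP, and summed beta cell markers ranged over 400 to 622 CPM in tunicamycin samples and 466 to 835 CPM in DMSO samples. INS, the insulin gene, was at 135.8 ± 78.12 CPM with tunicamycin and 170.0 ± 107.5 CPM with DMSO and was not called (adjusted p = 0.488). None of 4 delta cell markers tested was called with batch alone. With the block, the fit that called GLP1R, HHEX, a transcription factor of delta cells, was called lower (-0.66, adjusted p = 0.00763) in 6 of 6 pairs. The delta cell markers SST (0.20, adjusted p = 0.494), LEPR (0.08, 0.803) and RBP4 (-0.19, 0.511) were not called with the block. The beta cell markers PDX1, NKX6-1 and IAPP were called lower in that fit as well. The summed delta cell markers ranged over 1442 to 2907 CPM in tunicamycin samples and 986 to 5242 CPM in DMSO samples. With the mean of the mesenchymal markers added to the block fit, GLP1R changed by -0.91 with an adjusted p of 0.274. With that mean beside batch GLP1R changed by -0.81 (adjusted p = 0.278). The part of these cell types in the GLP1R difference was not tested.

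GIPR, the GIP receptor (chromosome 19, 45668244 to 45683724, plus strand), was not called in either fit. It had 467, 492 and 842 CPM as lowest, median and highest values in tunicamycin samples, against 368, 415 and 915 CPM in DMSO samples. Number 3 was far above the rest in both groups, and without those high samples tunicamycin lay at 467 to 537 CPM and DMSO at 368 to 510 CPM. On the log2 scale tunicamycin differed from DMSO by 0.15 ± 0.22 with a 95% interval of -0.32 to 0.61 (adjusted p = 0.754). With the block the interval was -0.01 to 0.39 (adjusted p = 0.174), and 5 of 6 pairs were higher with tunicamycin.

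GCGR, through which alpha cells can sense the glucagon they secrete (chromosome 17, 81804132 to 81814013, plus strand), had 6.06, 10.6 and 11.3 CPM as lowest, median and highest values in tunicamycin samples. In DMSO samples these were 5.81, 10.4 and 13.4 CPM, and the groups overlapped over most of their range. The log2 fold change was -0.09 ± 0.23 with a 95% interval of -0.58 to 0.40 (adjusted p = 0.870). Pair 6 was 0.96 higher with tunicamycin on the log2 scale and pair 5 was 0.59 lower (-0.59), so the pairs went both ways.

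The balance between the receptors of GLP-1 and GIP was also read within each library, where scaling between libraries plays no part. For every GIPR read there were 0.0154 ± 0.00597 GLP1R reads in tunicamycin samples and 0.0350 ± 0.00902 in DMSO samples (SD, n = 6 each). The ratio was lower with tunicamycin in 6 of 6 pairs, by -1.24 on the log2 scale on average (SD 0.73 over pairs). The exact sign-flip permutation test over the 6 pairs gave a two-sided p of 0.03125, the smallest it can give, and 0.09375 after Benjamini-Hochberg adjustment over 3 ratios. The ranges met at their ends, with 0.00913 to 0.0255 in tunicamycin samples and 0.0251 to 0.0462 in DMSO samples.

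**Figure D4:**
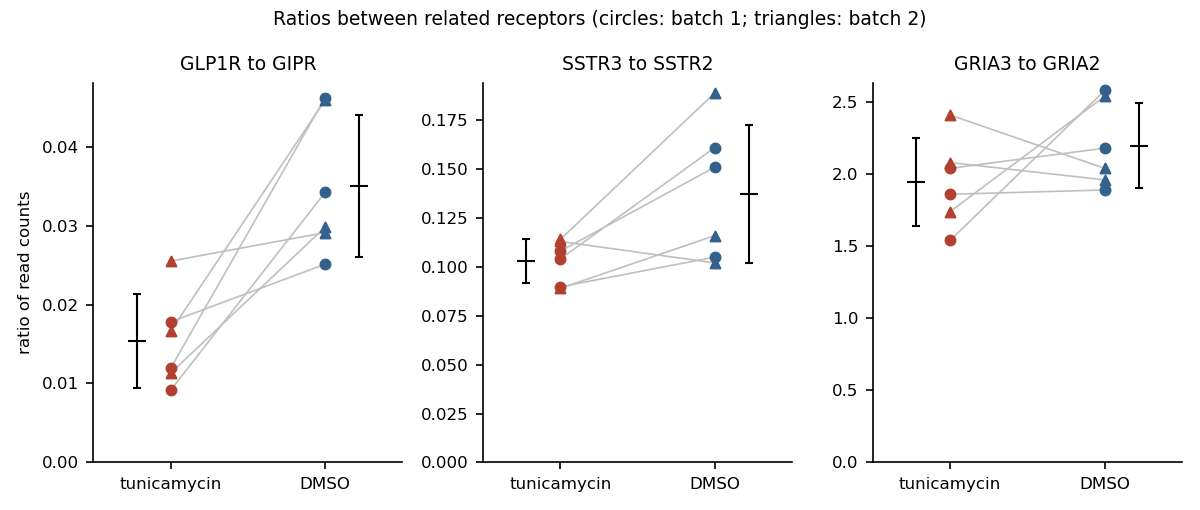
Ratio of read counts between related receptors in each library, on linear axes from 0, with tunicamycin on the left and DMSO on the right. Circles are batch 1, triangles batch 2, lines join samples of equal number and black bars are the mean and SD of 6. The ratio of GLP1R to GIPR was lower with tunicamycin in all 6 pairs, that of SSTR3 to SSTR2 in 5, and that of GRIA3 to GRIA2 in 4.

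SSTR2, the more abundant somatostatin receptor (chromosome 17, 73165012 to 73176633, plus strand), was at nearly equal levels in both groups. It had 289, 408 and 456 CPM as lowest, median and highest values in tunicamycin samples, against 335, 410 and 460 CPM in DMSO samples. Tunicamycin 1 was the lowest library, and the groups overlapped almost fully. Its log2 fold change of -0.03 ± 0.12 had a 95% interval of -0.29 to 0.22 (adjusted p = 0.903). SSTR2 shares 277 exonic bases with AC097641.1 on the same strand, so reads there are uncertain.

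SSTR3 (chromosome 22, 37204238 to 37212322, minus strand) also couples to Gi, and its transcript was lower with tunicamycin, a difference called with the block but not with batch alone. Its lowest, median and highest values were 25.9, 42.7 and 51.6 CPM in tunicamycin samples and 40.0, 51.9 and 70.5 CPM in DMSO samples. The groups overlapped, and 5 of 6 pairs were lower with tunicamycin, all but pair 6. With batch alone the log2 fold change was -0.42 ± 0.17 (95% interval -0.80 to -0.05) with an adjusted p of 0.167. With the block it was -0.42 ± 0.11 with an adjusted p of 0.0184, a call lost without pair 2 (0.0601) or pair 4 (0.0652). It was -0.52 in batch 1 and -0.31 in batch 2, with no call in either alone. With the mesenchymal mean as a covariate beside batch it was -0.74 (adjusted p = 0.0125), and with that covariate and the block it was -0.46 (0.317).

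Between the somatostatin receptors, 0.103 ± 0.0110 SSTR3 reads were counted per SSTR2 read in tunicamycin samples and 0.137 ± 0.0352 in DMSO samples (SD, n = 6 each). The mean log2 difference over pairs was -0.39, and the exact permutation test gave p = 0.0625 and 0.09375 after adjustment. The spread was wider among DMSO samples, whose ratios ran between 0.102 and 0.189, while those of tunicamycin samples ran between 0.0890 and 0.114.

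FFAR1, the receptor for long-chain fatty acids also known as GPR40 (chromosome 19, 35351552 to 35353862, plus strand), rose in tunicamycin samples. Its lowest, median and highest values were 7.80, 9.59 and 15.1 CPM in tunicamycin samples, against 5.18, 5.96 and 7.98 CPM in DMSO samples. The groups touched only where tunicamycin 3, at 7.80 CPM, fell below DMSO 2, at 7.98 CPM, and the highest values were those of tunicamycin 5 and tunicamycin 4. The log2 fold change was 0.70 ± 0.18 (95% interval 0.30 to 1.09), with an adjusted p of 0.0316, and with the block 0.71 ± 0.15 with an adjusted p of 0.00836. The pairs 1 to 6 differed by 0.56, 0.18, 0.59, 0.77, 1.22 and 0.93, all higher with tunicamycin.

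The FFAR1 increase was 0.43 in batch 1 (adjusted p = 0.805) and 0.98 in batch 2 (0.0459). The test of that difference gave an unadjusted p of 0.134, and 1 after adjustment over all genes. Leaving out single libraries kept the increase between 0.61 and 0.83 but ended the call without tunicamycin 4 (adjusted p = 0.0846), tunicamycin 5 (0.0853) or DMSO 1 (0.0586), 3 (0.0518), 4 (0.0566), 5 (0.0758) or 6 (0.0638). With the block it was called without any 1 of the 6 pairs. The mesenchymal covariate gave 0.67 (adjusted p = 0.101) with batch and 1.13 (0.0661) with the block. Without both samples numbered 5, the ones richest in heart muscle transcripts, the increase was 0.58 (adjusted p = 0.144), so no receptor was called.

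CASR, the calcium-sensing receptor, which also responds to amino acids (chromosome 3, 122183683 to 122291629, plus strand), was higher with tunicamycin in every pair and was called with the block but not with batch alone. It had 49.7, 78.6 and 118 CPM as lowest, median and highest values in tunicamycin samples, against 41.6, 60.6 and 90.9 CPM in DMSO samples. The groups overlapped widely, since samples 2 and 3 were high and sample 1 was low in both. Its fitted difference was 0.42 ± 0.23 on the log2 scale (95% interval -0.07 to 0.91) with an adjusted p of 0.299, and with the block 0.43 ± 0.10 with an adjusted p of 0.0135. The pairs ranged between 0.05 in pair 6 and 0.89 in pair 5. Batch 1 gave 0.37 and batch 2 gave 0.49, neither called alone, and the block call was lost without pair 4 (adjusted p = 0.0569). With the mesenchymal mean in the block fit CASR was called, at 0.77 (0.0452), whereas with that mean beside batch it was 0.20 (0.707).

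ADRB1, the beta-1 adrenergic receptor (chromosome 10, 114044056 to 114046908, plus strand), was near the limit of detection. It had 12, 7, 12, 4, 8 and 7 counts in tunicamycin samples 1 to 6 and 10, 11, 0, 2, 4 and 2 counts in DMSO samples 1 to 6. The groups overlapped, and DMSO 3 had no count, which allows up to 0.159 CPM, counting error only. Means were 0.369 ± 0.104 CPM with tunicamycin and 0.187 ± 0.158 CPM with DMSO (SD, n = 6 each). The gene did not pass the filter on low counts, and it was not called when that filter was left out. A difference was not detectable at this depth.

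GRIA2, the AMPA receptor subunit that limits calcium entry once its transcript is edited (chromosome 4, 157204182 to 157366075, plus strand), was not called. It had 48.4, 60.9 and 89.6 CPM as lowest, median and highest values in tunicamycin samples, against 44.4, 66.9 and 104 CPM in DMSO samples. Number 3 was the highest in both groups, and the groups overlapped almost fully. The log2 fold change was -0.13 ± 0.16 with a 95% interval of -0.48 to 0.21 (adjusted p = 0.681).

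GRIA3, the more abundant AMPA subunit of the pair (chromosome X, 123184153 to 123490915, plus strand), was lower with tunicamycin in all 6 pairs and was called with the block but not with batch alone. Its lowest, median and highest values were 102, 115 and 167 CPM in tunicamycin samples, against 113, 138 and 197 CPM in DMSO samples. The groups overlapped, with tunicamycin 3 above 4 of the DMSO samples. The log2 fold change was -0.28 ± 0.12 (95% interval -0.55 to -0.02) with an adjusted p of 0.197, and with the block -0.29 ± 0.07 with an adjusted p of 0.0204. The pairs differed by between -0.50 and -0.15, a narrow range. It was -0.35 in batch 1 and -0.20 in batch 2, and the block call was lost without pair 1 (adjusted p = 0.0526), 2 (0.0802) or 4 (0.0690) and with the mesenchymal mean in that fit (0.606).

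There were 1.94 ± 0.301 GRIA3 reads per GRIA2 read in tunicamycin samples and 2.20 ± 0.297 in DMSO samples (SD, n = 6 each), and this ratio did not differ beyond the spread of the pairs (exact permutation test, p = 0.3438). The interaction of treatment and batch was also tested for every receptor. No gene of the table passed that test after adjustment in edgeR. Of the 16613 genes tested, 157 had an unadjusted p under 0.05, or 445 with the block. Both are a smaller share than the 0.05 that would pass by chance if no gene differed.

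The genes that act with these receptors were read from 7 lists of related receptors and of signalling and accessory proteins. Over all genes tested, 4.7% were called higher and 3.42% lower with batch as covariate, and 9.19% and 8.6% with the block. Calls in the lists of the cAMP route, Gi signalling, other glutamate receptors and AMPA receptor proteins were near or below these shares. No list was tested as a set. Of the 11 tested class B hormone receptors and receptor activity-modifying proteins, 2 fell and none rose, and their median log2 fold change was -0.58, beside -0.01 over all genes. The 2 were RAMP1 and RAMP2, single-pass proteins that pair with class B receptors and alter their ligand choice or transport. RAMP1 was at 4.23 ± 0.872 CPM in tunicamycin samples and 8.93 ± 2.72 CPM in DMSO samples, with no overlap between the groups (log2 fold change -1.08 ± 0.22, adjusted p = 0.00804). RAMP2 was at 13.1 ± 3.19 CPM with tunicamycin and 23.7 ± 7.73 CPM with DMSO (-0.86 ± 0.17, adjusted p = 0.0054). Both fell under each omission of 1 library, and with the block CALCRL, which needs a RAMP to bind its ligands, and PTH2R were called lower too.

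Along the cAMP route, 2 of 31 tested genes rose and 1 fell, and with the block PDE10A, a cyclic nucleotide phosphodiesterase, was also called higher (0.90, adjusted p = 0.00431) and ADCY5, an adenylyl cyclase, lower (-0.58, 0.0115). ADCY1, an adenylyl cyclase stimulated by calcium and calmodulin, was at 97.7 to 137 CPM in tunicamycin samples and 60.6 to 91.9 CPM in DMSO samples, without overlap (0.56 ± 0.12, adjusted p = 0.0117). ADCY9, another cyclase, rose by 0.54 (adjusted p = 0.0439), and PRKAR2B, a regulatory subunit of protein kinase A, fell by 0.46 (0.0490), and both calls were fragile to single libraries. ADCY9 kept its call only without tunicamycin 1, tunicamycin 3 or DMSO 2 (adjusted p otherwise 0.0509 to 0.111), and PRKAR2B only without tunicamycin 1, tunicamycin 2 or DMSO 3 (otherwise 0.0727 to 0.120). Of 20 Gi signalling and desensitisation genes 1 fell. This was RGS2, which speeds the shutting off of G proteins, at 38.9 ± 7.72 CPM with tunicamycin and 69.2 ± 12.9 CPM with DMSO (-0.83 ± 0.15, adjusted p = 0.00339). With the block 2 genes of that list were called higher, GRK3 and GRK5, and ARRB1 joined RGS2 among those called lower. GRK3 and GRK5 are kinases that switch receptors off, and ARRB1 encodes beta-arrestin 1, which binds the receptors they have phosphorylated.

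Among 21 other nutrient and metabolite receptors and Gq genes, 2 rose and 1 fell, and with the block GPBAR1, a bile acid receptor, was also called lower (-0.38, adjusted p = 0.0286). GPR119, a Gs-coupled receptor for lipid amides, was at 74.5 ± 28.4 CPM with tunicamycin and 31.7 ± 15.6 CPM with DMSO (SD, n = 6 each). It was higher in 6 of 6 pairs, with a log2 fold change of 1.23 ± 0.32 (adjusted p = 0.0287). Its groups overlapped because DMSO 2, at 60.2 CPM, lay above 3 tunicamycin samples. GPR142, a receptor for aromatic amino acids, was at 9.24 ± 2.29 CPM with tunicamycin and 4.81 ± 1.71 CPM with DMSO (0.95 ± 0.24, adjusted p = 0.0284), higher in 6 of 6 pairs. Each of these calls was lost without tunicamycin 2, 4 or 5 or DMSO 1, 4 or 5 (adjusted p up to 0.0728 for GPR119 and 0.0747 for GPR142), and that of GPR119 also without DMSO 3 and that of GPR142 without DMSO 6. ADORA1, the A1 adenosine receptor, was low throughout, at 0.715 ± 0.579 CPM with tunicamycin and 2.52 ± 2.36 CPM with DMSO. Its fitted log2 fold change was -1.82 (adjusted p = 0.0210), with DMSO 5 far above the rest at 7.12 CPM. The call was lost without DMSO 5 (-1.46, adjusted p = 0.0741), DMSO 1 (0.0501), tunicamycin 4 (0.0575) or tunicamycin 6 (0.0511).

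Of 14 adrenergic, muscarinic and peptide receptors tested, 3 fell and none rose, and with the block ADRA2A, another Gi-coupled adrenergic receptor, was also called lower (-1.02, adjusted p = 0.0361). ADRA2C, a Gi-coupled adrenergic receptor, was at 4.80 ± 1.07 CPM with tunicamycin and 8.25 ± 1.81 CPM with DMSO (-0.79 ± 0.18, adjusted p = 0.0154). AVPR1B, a vasopressin receptor, fell by 0.59 (adjusted p = 0.0459), and GALR1, a galanin receptor, fell by 1.11 (0.0388). ADRA2C was called under each omission of 1 library, AVPR1B only without tunicamycin 2, DMSO 1 or DMSO 5 (adjusted p otherwise 0.0501 to 0.108). The GALR1 call was lost without tunicamycin 1, 4 or 5 or DMSO 1, 3, 4 or 5 (0.0532 to 0.0990).

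Of 23 other glutamate receptors tested 1 was called with batch as covariate, higher, and with the block GRIN3A, an NMDA receptor subunit, was also called, lower in 6 of 6 pairs (-0.53, adjusted p = 0.00241). The gene called in both fits was GRM8, a Gi-coupled metabotropic receptor that glutamate uses to lower glucagon release in rat islets. It was at 7.69 to 18.8 CPM in tunicamycin samples and 4.08 to 5.60 CPM in DMSO samples, with no overlap and with tunicamycin 1 the highest (1.01 ± 0.20, adjusted p = 0.00749). Of 27 AMPA receptor auxiliary and trafficking genes 1 fell, whereas with the block 3 were called higher and 2 lower. CNIH3 (0.38, adjusted p = 0.0303), NPTX2 (0.93, 0.0265) and SACM1L (0.28, 0.0257) were those called higher, and CACNG5 (-1.05, 0.0264) was called lower beside CNIH2. CNIH2, an auxiliary protein that slows the closing of AMPA receptors, was at 116 ± 16.2 CPM with tunicamycin and 175 ± 39.1 CPM with DMSO (-0.59 ± 0.15, adjusted p = 0.0229), a call lost without tunicamycin 1, 4 or 5 or DMSO 1 or 5 (0.0537 to 0.0646). GRM8 was called in all 12 omissions.

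All 14 companion genes named here were also called with the block. With the mesenchymal mean as a covariate beside batch 5 of the 14 were still called, namely RGS2, ADRA2C, AVPR1B, GRM8 and CNIH2. The other 9 kept their direction, with log2 fold changes of -1.04 for RAMP1, -0.77 for RAMP2, 0.41 for ADCY1, 0.40 for ADCY9, -0.53 for PRKAR2B, 0.90 for GPR119, 0.70 for GPR142, -1.62 for ADORA1 and -0.77 for GALR1 (adjusted p up to 0.253). Without both samples numbered 5, which had the most heart muscle transcripts, 5 were still called, namely RAMP1, RAMP2, RGS2, AVPR1B and GRM8. Beside these counts, 5 of 8 ductal and acinar and 5 of 6 liver and gut markers were called lower with batch as covariate. The summed levels of the ductal and acinar markers were 150 to 323 CPM with tunicamycin and 392 to 545 CPM with DMSO. In that list SOX9 (-0.87, adjusted p = 0.0922), PRSS1 (1.11, 0.203) and MUC1 (0.08, 0.882) were not called. Of 8 pan-endocrine markers 2 were called higher, RFX6 (0.90, adjusted p = 0.00249) and PAX6 (0.88, 0.00463), and none lower. The part of changes in other cell types in these results was not tested.

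**Figure D5:**
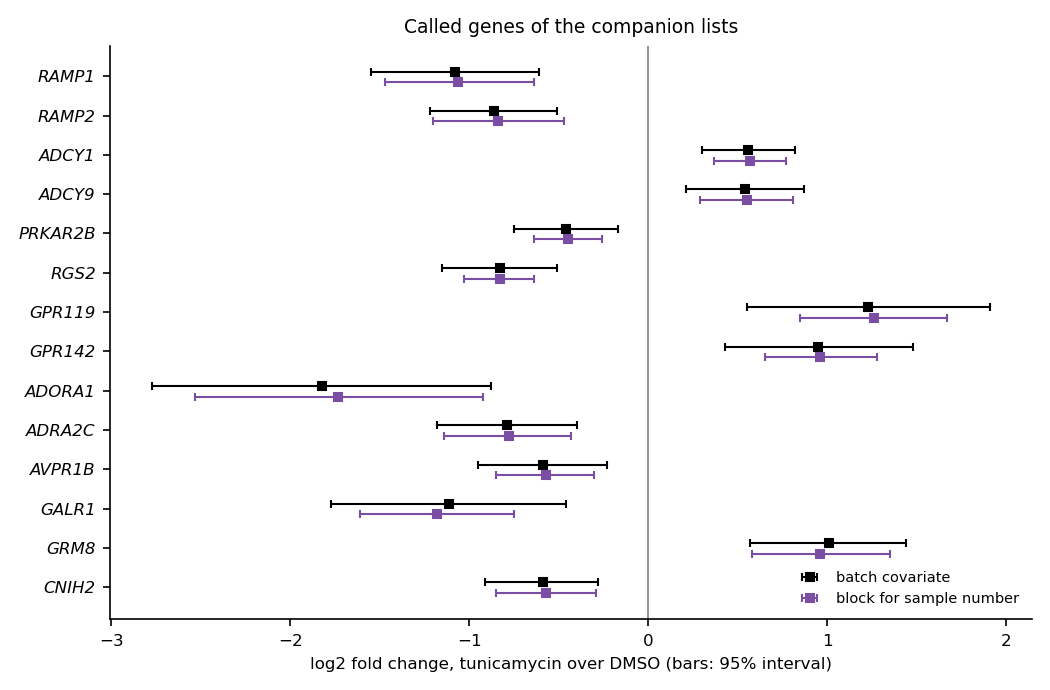
Log2 fold change of tunicamycin over DMSO, with 95% intervals, for the 14 called genes of the 7 companion lists. Black squares are the fit with a batch covariate and purple squares the fit with a block for the sample number. GPR119 has the largest increase (1.23 with the batch covariate) and ADORA1 the largest decrease (-1.82) among the 14.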

How the data were processed

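The deposited table holds the authors' raw read counts per gene symbol, whole numbers without normalization. The submitters' processing notes name GRCh38, cutadapt 4.4, HISAT2 2.1.0 and featureCounts 2.0.6. Annotation and strand setting of the counting: not given in the sources used here. Overlapping and antisense genes are therefore uncertain.

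Genes were filtered with filterByExpr by group in edgeR 4.0.16 (R 4.3.3), which kept 16613 and removed 11665. CPM uses TMM-scaled library sizes. Tunicamycin was compared with DMSO by the quasi-likelihood test of edgeR, with sequencing batch as covariate and p-values adjusted by Benjamini-Hochberg over all genes tested, at a threshold of 0.05. SE is that of the log2 fold change. Every p is two-sided and measures the spread between these samples, since separate differentiations are not stated. No 2 samples within a group were alike within sampling noise (chi-square per gene 10.9 to 99.6).

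Deviations from group and batch means correlated between samples of the same number at 0.52, 0.60, 0.54, 0.12, 0.19 and 0.18 for numbers 1 to 6, so the numbers were taken to pair the samples. The labels call each number a biological replicate. They do not say what samples of equal number in both groups share, and for numbers 4 and 5 another number correlated more (0.22 and 0.26). The block fit is therefore given beside the receptors and lists whose calls it changes.

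The 10 receptors and the lists were chosen with earlier results of these data known. All receptors are named. Of each companion list, up to 4 called genes with a mean of at least 1 CPM are described, by smallest adjusted p. Genes named only for the block were added after their values were seen. Alternatives included DESeq2 1.42.0, limma 3.58.1, other scalings and filters, single batches, the omission of each sample, and a covariate for mesenchymal markers.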

Additional observations from a re-analysis of the deposited data

Results flagged for a closer look

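GIPR had 1 sample far from the other 5 in each group. Tunicamycin 3 had 842 CPM, with the nearest sample of its group at 537 CPM, a gap of 0.814 of the group's range. DMSO 3 had 915 CPM, with the nearest at 510 CPM, a gap of 0.740 of the range. These were 2 of 20 groups of 6 samples examined, and chance flags about 1 in 20.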

How the results depend on the processing

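The main fit called 1349 genes and 1 receptor. The replicate block called 2954 genes and 5 receptors, DESeq2 called 2096 and 2, limma-voom called 2 receptors, batch 1 alone gave 57 genes and 0 receptors, and batch 2 alone gave 654 genes. The mesenchymal covariate gave 830 genes with batch and 402 with the block. Without both samples numbered 5 there were 705 genes and 0 receptors. Omitting 1 sample gave 792 to 1423 genes and 0 to 2 receptors, and omitting 1 pair with the block gave 2209, 2108, 2250, 1787, 2355 and 3244 genes for pairs 1 to 6 and between 2 and 5 receptors (4, 3, 5, 2, 5 and 5). Of the other values recomputed, 565 kept their direction and side of the threshold, 126 lost a call, 28 gained one and 12 turned direction. The turned values were all close to 0. GCGR, -0.09 at first, ran between -0.22 and 0.03 when 1 sample was omitted. It was 0.03 without tunicamycin 1, 0.03 without DMSO 3, 0.00 without DMSO 4, 0.03 with the block without pair 5 and 0.01 without both samples numbered 5. SSTR2, -0.03 at first, ran between -0.10 and 0.04 when 1 sample was omitted. It was 0.01 in batch 2 alone, 0.04 without tunicamycin 1, 0.02 without DMSO 2, 0.03 with the block without pair 1, and 0.00 with the block without pair 5 and without both samples numbered 5. GRIA2 was 0.04 with the block and the mesenchymal covariate. The cause was not tested. The mesenchymal covariate with the block, the block with single pairs omitted, another filter and the omission of both samples numbered 5 were chosen after seeing the data. Single batches hold 3 samples a group, and ADRB1 passed no filter on low counts and was not called without one.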
